A study of Mus musculus with 5 samples.

Results

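The Sox2 and Klf4 loci were followed through the A and B compartments of hippocampal neuronal nuclei, as 2 windows of the mouse genome (build mm9, as in the deposited files). The Sox2 window covers chr3:34400001-35650000 and the Klf4 window chr4:55400001-56500000. All 25 bins of the first and all 22 of the second had a value in each library, so the windows hold 47 of the 47652 bins analysed. Within them, the Sox2 gene was assigned the 2 bins of chr3:34500001-34600000, since it lies at about the border between them, and the Klf4 gene the bin chr4:55500001-55550000. The desert is the rest of each window on the side of higher coordinates, 21 bins for Sox2 (chr3:34600001-35650000) and 19 for Klf4 (chr4:55550001-56500000). A flank of 500 kb was taken on each side of each window, with 10 bins per flank.

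Hi-C counts which stretches of DNA touch each other inside the nucleus. PC1, the first principal component of the interaction matrix, is a score without unit. In HOMER's convention a value above 0 marks compartment A, the open and gene-rich part of the genome, and a value below 0 compartment B, the closed and gene-poor part. PC1 is scaled per chromosome, so a value gives a place on the axis from B to A relative to the other bins of that chromosome. It holds no measure of RNA, and the expression of Sox2 or Klf4 and the neuronal identity of the nuclei were not checked against markers here.

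Nuclei came from the hippocampus of ArcCreERT2 x R26R-STOP-floxed-eYFP mice with the genotype label +/+, and were sorted after staining for GFP and for the neuronal nuclear protein NeuN. In these mice the promoter of Arc, an activity-regulated gene, drives a tamoxifen-dependent Cre, so that the reporter marks neurons active around the dose. Animals were kept in the dark for 24 h, given 1 dose of 4-hydroxytamoxifen 1 h before contextual fear conditioning, and collected 1.5 to 2 h or 5 days later, per the labels' protocols. Those collected at 5 days spent the first 48 h after conditioning in the dark again. The titles name 2 Basal, 1 Early and 2 Late libraries, each group made from 100000 nuclei of 2 animals, while the treatment label (foot shock and collection on day 0, no recall) is the same for all 5. Which sorted fraction and which time each name stands for, and the sex and age of the mice, are not stated in the labels, so Basal, Early and Late are used as names only. Spread between libraries of a group may be technical. Local scatter of PC1, estimated from the differences between libraries, was 0.13 for each Basal library and 0.23 for Early. The Late libraries had 0.11 (replicate 1) and 0.20 (replicate 2).

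Sox2 encodes an HMG-box transcription factor that keeps neural stem cells and pluripotent cells in their undifferentiated state. In the hippocampus it is known from the stem cells of the dentate gyrus and from astrocytes, and it is largely switched off as neurons mature. Klf4 encodes a zinc-finger transcription factor of epithelial differentiation and pluripotency that also restrains the growth of neurites. With Oct4 and Myc, these are the factors used to reprogram somatic cells to pluripotency. Genes of this kind often sit beside long stretches without protein-coding genes, in which distant enhancers of the developmental gene are found.

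In RefSeq's GRCm38.p6 gene order, Sox2 lies between Dnajc19, a factor of mitochondrial protein import, and Atp11b, a phospholipid flippase. Beyond them follow Fxr1, an RNA-binding protein of the fragile X family, and Dcun1d1, a factor of cullin neddylation. Between Sox2 and Atp11b the table lists no protein-coding gene, but 13 other genes, of which 9 are long noncoding RNAs. The long noncoding RNA Sox2ot is listed on the other side of Sox2 by its start. Klf4 lies between Rad23b, a DNA repair and ubiquitin-shuttle protein, and Actl7b, an actin-like gene of the testis. Beyond them follow the zinc-finger gene Zfp462 and the actin-like gene Actl7a. Between Klf4 and Actl7b stand 11 other genes, of which 9 are long noncoding RNAs. Sox2 is on the plus strand and its desert is downstream of the gene, and Klf4 is on the minus strand and its desert is upstream. The neighbours were not assigned to bins, because the gene table is on another build than the PC1 values.

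The 250 bases before each gene's start are shown because they are the promoters of the genes for which the bins are named and both are rich in CG dinucleotides, the target of DNA methylation and the mark of CpG islands. Capitals mark the CG dinucleotides. The Sox2 promoter is GRCm38.p6 chr3:34649745-34649994 on the plus strand, and the Klf4 promoter is GRCm38.p6 chr4:55532476-55532725 on the minus strand. These positions are not in mm9 and were not converted.
Sox2: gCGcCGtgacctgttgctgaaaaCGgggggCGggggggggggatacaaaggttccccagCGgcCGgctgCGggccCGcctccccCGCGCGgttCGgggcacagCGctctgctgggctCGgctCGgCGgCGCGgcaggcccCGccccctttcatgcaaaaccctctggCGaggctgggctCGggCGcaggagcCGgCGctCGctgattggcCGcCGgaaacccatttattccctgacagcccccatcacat
Klf4: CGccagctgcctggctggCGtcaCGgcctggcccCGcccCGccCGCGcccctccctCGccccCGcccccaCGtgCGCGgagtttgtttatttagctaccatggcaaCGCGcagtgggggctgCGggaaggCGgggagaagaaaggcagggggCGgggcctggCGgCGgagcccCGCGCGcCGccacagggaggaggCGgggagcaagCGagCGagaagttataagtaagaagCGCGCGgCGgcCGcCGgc
The Sox2 promoter holds 27 CG dinucleotides and the Klf4 promoter 32, against a median of 6 over the 32851 promoters of the RefSeq table. Only 8.56% of promoters hold at least as many as Sox2, and 4.58% at least as many as Klf4. GC makes up 72% of the first and 74% of the second, with a median of 52.4% over all. The GC box GGGCGG, searched on both strands, matched 2 times in the Sox2 promoter and 4 times in that of Klf4, and 32.7% of all promoters hold it. CCAAT, searched the same way, matched 1 time in Sox2 and not in Klf4 (33.8% of all promoters), and neither promoter holds TATAAA (12.4% of all promoters).

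The bins of Sox2 lay just inside compartment B in Basal and deep in compartment A in Late. Over its 2 bins, Basal replicates 1 and 2 had a mean PC1 of -0.12 and -0.17, Early had 0.13, and Late replicates 1 and 2 had 0.94 and 1.22. All 3 groups stood apart, with Early just above 0 and nearer to Basal than to Late. Basal averaged -0.15 ± 0.036 and Late 1.08 ± 0.20 (SD, n = 2 each), so that Late was higher by 1.23. Of the 3128 bins of chromosome 3, the bin chr3:34550001-34600000 had the second highest Late minus Basal difference (1.23, limma SE 0.15), and the bin chr3:34500001-34550000 the third highest (1.22, SE 0.12). These bins share reads, so they are not 2 separate observations. In order of position, Early differed from Basal in them by 0.25 (SE 0.15) and 0.30 (SE 0.18). Late exceeded Early by 0.97 and 0.94, so most of the distance from Basal to Late lay between the Early and the Late libraries.

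The bin of Klf4 was in compartment A in all 5 libraries. The Basal replicates had a PC1 of 0.15 and 0.17, Early had 0.57, and the Late replicates had 0.62 and 0.69. Here Early stood beside Late, and both Basal libraries lay below. Basal averaged 0.16 ± 0.016 and Late 0.66 ± 0.044 (SD, n = 2 each), and the difference of 0.50 (limma SE 0.11) ranked at place 242 of the 2977 bins of chromosome 4. Early differed from Basal by 0.42 (SE 0.14), and Late from Early by 0.083 (SE 0.14). The Klf4 gene bin therefore changed no compartment, and the passage from B to A described here concerns its desert.

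The 2 windows were chosen by their PC1 in these same libraries, the Klf4 window around a long run that passes from B in Basal to A in Late. The levels and differences of the windows are therefore descriptions, and no test of a window is given. For a single value, 2 against 2 libraries could in any case not go below a two-sided exact permutation p of 0.333.

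**Figure D1:**
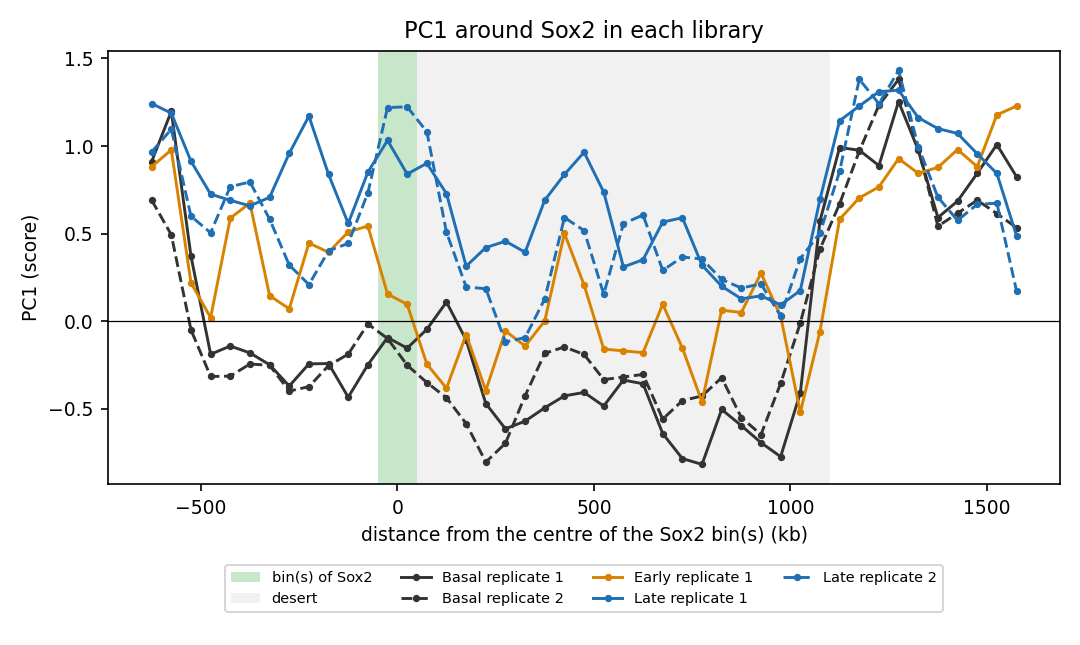
PC1 (score) of each library against distance from the centre of the Sox2 bins in kb, 1 line per library, with the gene's bins and the desert shaded. The Late lines lie above 0 over the gene's bins (0.94 and 1.22 on average) and the Basal lines below it (-0.12 and -0.17), and all lines meet above 0 past the far end of the desert.

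The Sox2 desert was in B in Basal, near the border in Early and in A in Late. The Basal replicates had a mean PC1 of -0.42 and -0.36 over it, Early had -0.084, and the Late replicates had 0.48 and 0.33. The groups did not overlap, with Early between the others. Basal averaged -0.39 ± 0.039 and Late 0.40 ± 0.11 (SD, n = 2 each), which is higher by 0.80, and Early exceeded Basal by 0.31. In Basal, 2 and 1 of the 21 desert bins were above 0, in Early 8, and in Late 21 and 19. The 2 bins below 0 in Late replicate 2 were chr3:34800001-34900000, with PC1 of -0.12 and -0.093, where Late replicate 1 stood at 0.46 and 0.39.

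Along the Sox2 desert, the Late minus Basal difference was positive in all 21 bins and below that of the gene's bins in all of them. It was highest in the desert bin next to the gene, chr3:34600001-34650000, where PC1 went from -0.045 and -0.35 in Basal to 0.90 and 1.08 in Late (difference 1.19). Early stood at -0.24 in that bin, between the Basal libraries. The gene's bins, at 1.22 and 1.23, exceeded it by less than its limma SE of 0.14, so a peak at the gene itself is not resolved. For Late minus Early, 2 of the 21 desert bins, those next to the gene (1.24 and 1.00), lay above the gene's mean of 0.95, and 19 below. The lowest Late minus Basal difference, 0.11, was at the far end, in chr3:35600001-35650000. This last bin of the window was already in A in Basal, at 0.57 and 0.41, against 0.70 and 0.50 in Late, and it was in B in Early, at -0.058. The median over the desert bins was 0.81, where over all analysed bins it was -0.011, with the 5th and 95th percentiles at -0.56 and 0.59.

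Early had its highest value in the Sox2 desert in the bin chr3:34950001-35000000, which was chosen after its values were seen. PC1 there was -0.43 and -0.15 for the Basal libraries, 0.50 for Early, and 0.84 and 0.59 for the Late libraries. In this bin all 3 of the Early and Late libraries were in A and both Basal libraries in B. Correlated across its 21 bins, the Basal replicates had a Pearson r of 0.56 and the Late replicates of 0.49, while Early had r from -0.14 to 0.16 with the other 4 libraries. These correlations are across neighbouring bins that share reads, and describe shape only.

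The Klf4 desert was in B in Basal and in A in Late, with Early just above the border. The Basal replicates had a mean PC1 of -0.30 and -0.35 over it, Early had 0.15, and the Late replicates had 0.45 and 0.33. The groups did not overlap, and Early again stood between the others. Basal averaged -0.33 ± 0.029 and Late 0.39 ± 0.089 (SD, n = 2 each), which is higher by 0.72, and Early exceeded Basal by 0.47. In Basal, 2 and 1 of its 19 bins were above 0, in Early 13, and in Late 19 and 18. The only Late value below 0 was -0.047, in replicate 2 at chr4:56400001-56450000.

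The highest Late minus Basal difference in the Klf4 desert lay well away from the gene, in chr4:55950001-56000000, where PC1 went from -0.37 and -0.81 to 0.46 and 0.45 (difference 1.05). Early was at -0.39 in this bin, its lowest value in the desert. The lowest difference, 0.41, was in the bin next to the gene, chr4:55550001-55600000, where both Basal libraries were in A, at 0.19 and 0.038, and Late stood at 0.57 and 0.48. Of the 19 desert bins, 17 differed by more than the gene's bin. The desert median was 0.66, beside -0.011 over all analysed bins and -0.044 over chromosome 4. Across neighbouring bins, and again as a description of shape only, r over the 19 bins was 0.61 between the Basal replicates, 0.35 between the Late replicates, and 0.57 and 0.60 between Early and the Basal replicates. Early had r of 0.12 and 0.21 with the Late replicates, and the Basal and Late libraries had r from -0.094 to 0.50 with each other.

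**Figure D2:**
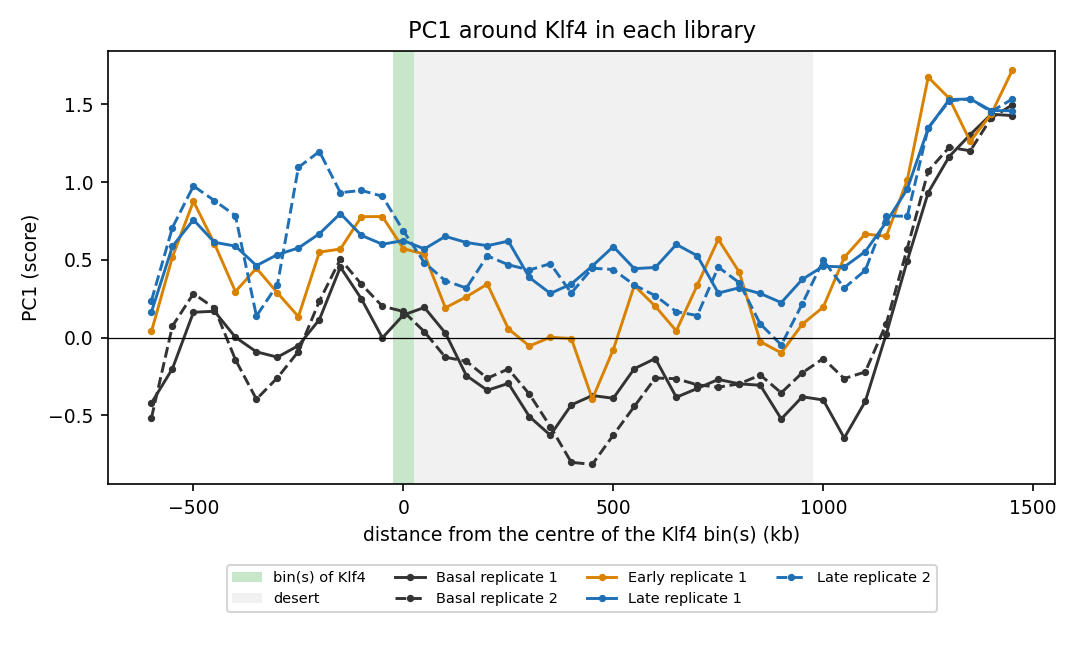
PC1 (score) of each library against distance from the centre of the Klf4 bin in kb, 1 line per library, with the gene's bin and the desert shaded. At the gene's bin all 5 lines are above 0 (0.15 and 0.17 in Basal), and over the desert the Basal lines are mostly below 0 (means -0.30 and -0.35) and the Late lines above it (means 0.45 and 0.33).

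Chromosome medians of PC1 were spread more widely between libraries on chromosome 4 than on chromosome 3. On chromosome 4 each Basal library had a median PC1 of -0.27, Early had -0.059, and the Late libraries had -0.12 and -0.067. Its bins above 0 made up 42.1% and 42.4% for the Basal libraries, 48.3% for Early, and 47.9% and 48.3% for the Late libraries. Its mean PC1, however, was 0.0042 in Basal and 0.0016 in Late, and its median Late minus Basal difference per bin was -0.044. Both Late libraries lay above both Basal libraries in 28.5% of its bins and below them in 38.9%. These values show no rise shared by its bins, so aligning the medians does not take out such a rise. With chromosome medians aligned between libraries, the Klf4 desert difference was 0.54 for Late minus Basal and 0.26 for Early minus Basal, the latter a fall by over 1.5 times. On chromosome 3 the medians lay closer together, at -0.17 for each Basal library, -0.085 for Early, and -0.16 and -0.11 for the Late libraries, and aligning them left the Sox2 desert difference at 0.76 for Late minus Basal. A running mean over 10 Mb was also subtracted. This mean includes the windows and their flanks, so the step takes out part of their own difference too. Late minus Basal was then 0.64 in the Sox2 desert and 0.48 in the Klf4 desert. For Early minus Basal the same step gave 0.15 and 0.34, and the first is below the deposited 0.31 by over 1.5 times.

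The difference between gene and desert within each library takes out any shift shared by a chromosome, and it went opposite ways at the 2 loci. Desert minus gene bins at Sox2 was -0.30 and -0.19 for the Basal libraries, -0.21 for Early, and -0.46 and -0.89 for the Late libraries. The gene's bins stood above their desert in every library, and by more in each Late library than in any other. Basal averaged -0.24 ± 0.076 and Late -0.68 ± 0.31 (SD, n = 2 each), and Late minus Basal was -0.43, which was -0.21 without Late replicate 2 and -0.65 without Late replicate 1. At Klf4 it was -0.45 and -0.51 for the Basal libraries, -0.42 for Early, and -0.17 and -0.36 for the Late libraries. There the desert lay closer to its gene in Late: Basal averaged -0.48 ± 0.045 and Late -0.26 ± 0.13 (SD, n = 2 each), and Late minus Basal was 0.22, which was 0.12 without Late replicate 1 and 0.31 without Late replicate 2. Early lay within 0.058 of the Basal mean at both loci on this measure. Whether the 2 loci differ was not tested.

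**Figure D3:**
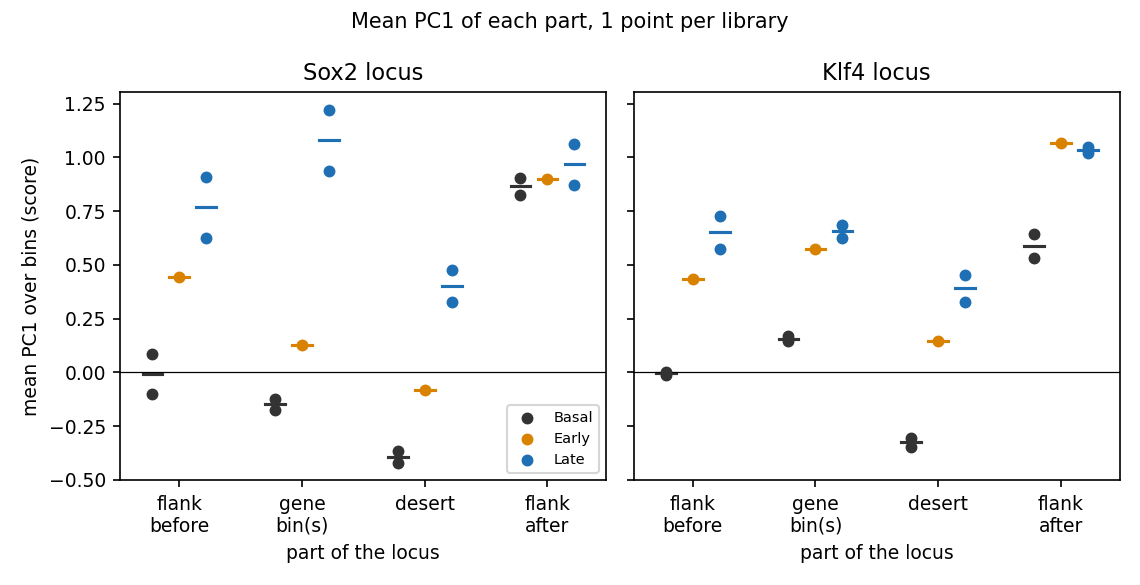
Mean PC1 (score) over the bins of each part of the Sox2 locus (left) and the Klf4 locus (right), with 1 point per library, a bar at the group mean and colours for Basal, Early and Late. At Sox2 the flank after the window stays between 0.82 and 1.06 in all libraries, while the desert runs from -0.42 in Basal to 0.48 in Late.

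The flanks moved unequally. The flank before the Sox2 window, toward Dnajc19, had a mean PC1 of 0.087 and -0.10 for the Basal libraries, 0.44 for Early, and 0.91 and 0.62 for the Late libraries. It moved with the window, by 0.77 for Late minus Basal and 0.45 for Early minus Basal. The flank after the window, toward Atp11b, was in A throughout, at 0.90 and 0.82 for the Basal libraries, 0.90 for Early, and 1.06 and 0.87 for the Late libraries. Its groups overlapped, and Late minus Basal was 0.10. Desert minus this flank was therefore -1.26 ± 0.096 in Basal and -0.56 ± 0.029 in Late (SD, n = 2 each), with Early at -0.98.

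At Klf4 both flanks moved. The flank before the window, toward Rad23b, had a mean PC1 of 0.0021 and -0.011 for the Basal libraries, 0.43 for Early, and 0.58 and 0.73 for the Late libraries, a Late minus Basal difference of 0.66. The flank after the window, toward Actl7b, had 0.53 and 0.64 for the Basal libraries, 1.07 for Early, and 1.05 and 1.02 for the Late libraries, a difference of 0.45. In this flank Early was above both Late libraries. The rise thinned out with distance: the bins of chr4:56500001-56700000 differed by 0.71 to 0.84, and the last 2 of the flank by 0.033 and 0.034.

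The borders of the windows show the same. The bins just outside and just inside the start of the Sox2 window differed between Late and Basal by 0.87 and 0.81, so the window begins inside a longer stretch. At its end, the last bin inside and the first outside differed by 0.11 and 0.17. At the start of the Klf4 window the bin outside differed by 0.39 and the bin inside by 0.51, and at its end the bin inside by 0.60 and the bin outside by 0.75.

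**Figure D4:**
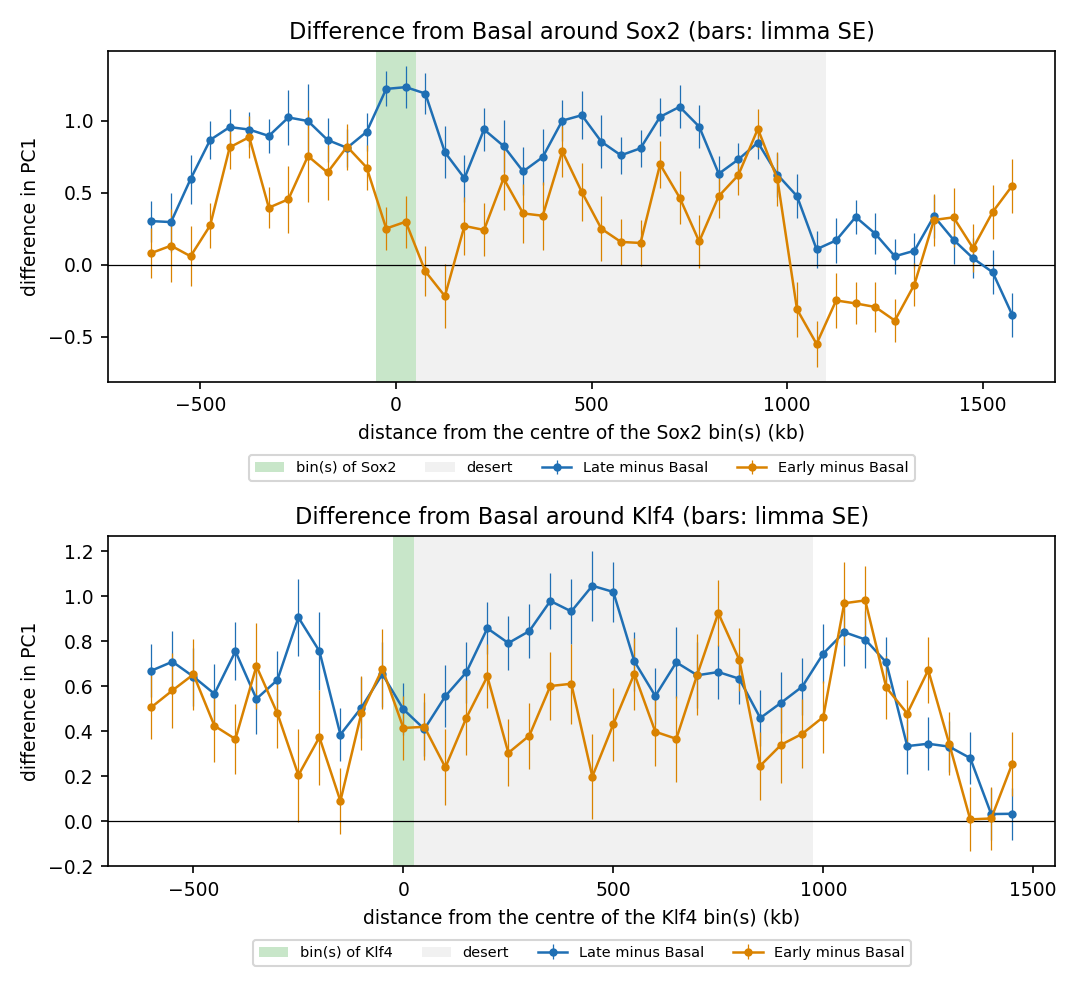
Difference in PC1 from Basal against distance from the centre of the gene's bins in kb, for Late and Early, with limma standard errors as bars, Sox2 above and Klf4 below. Late minus Basal is highest at the Sox2 bins (1.22 and 1.23) and the desert bin beside them (1.19), and falls to 0.11 at the end of the desert. At Klf4 it is 0.50 in the gene's bin and peaks at 1.05 inside the desert.

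Runs of neighbouring bins of 1 sign show how the compartments joined. In Basal, the centre of the Sox2 desert lay in a B run of 900 kb in replicate 1 and of 1600 kb in replicate 2, and both ended at 35.60 Mb. Early broke this into pieces: Sox2 was at the end of an A run of 950 kb (chr3:33650001-34600000), and the desert's centre lay in a B run of 150 kb. In Late replicate 1, gene, desert and both flanks were part of 1 A run of 5350 kb, from 33.65 to 39.00 Mb. In Late replicate 2 the desert's centre was in an A run of 4350 kb that began at 34.90 Mb, cut off from the gene's run of 1150 kb by the 2 bins just below 0.

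The Klf4 bin sat in a small A run in Basal, 150 kb long in replicate 1 and 300 kb in replicate 2, next to a B run of 1000 and 1050 kb that held the centre of the desert and ended at 56.65 Mb. In Early the run of the gene reached 950 kb, from 54.85 to 55.80 Mb. In Late replicate 1 it reached 5200 kb, from 54.70 to 59.90 Mb, over the whole window and both flanks. In Late replicate 2 it reached 1650 kb and ended at 56.40 Mb, at the 1 desert bin below 0. Run lengths depend on single bins near 0, and the libraries with the highest local scatter are Early and Late replicate 2. The part of that scatter in the run lengths was not tested.

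By the limma test, 23 of the 25 bins of the Sox2 window and 21 of the 22 of the Klf4 window were called higher in Late than in Basal, where 8.78% of all analysed bins were. Nothing is read from these counts, because this contrast was known when the windows were drawn. The 2 uncalled Sox2 bins were the last 2 of the desert, and the uncalled Klf4 bin the first of its desert. Both Late libraries were above both Basal libraries in 24 Sox2 and 22 Klf4 bins, with 30.1% over all bins. The counts rested on the set of bins and on single libraries. With all sequences kept as deposited, limma called 0 in both windows, and 0 of all 50542 bins. This set adds back chromosome 7, where PC1 ran nearly opposite between some libraries (lowest r -0.976). The Klf4 count was 12 with chromosome medians aligned and 8 with the 10 Mb trend removed. In these settings 9052 and 5694 of all bins were called in either direction, against 7819 with PC1 as deposited. With Basal replicate 1 or 2 left out, fewer bins were called in the Klf4 window and over all bins alike. The Klf4 desert difference was then 0.74 and 0.70, against 0.72 with both.

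In the flanks, which lie outside the windows, 8 of 10 bins before the Sox2 window and 0 of 10 after it were called higher in Late. At the Klf4 window 9 of 10 before and 4 of 10 after were, where 8.78% of all analysed bins were. By sign, 21 Sox2 and 16 Klf4 window bins were below 0 in both Basal libraries and above 0 in both Late libraries (3.13% of all bins), as were 7 and 0 bins of the Sox2 flanks and 4 and 3 of the Klf4 flanks. The flanks adjoin windows drawn with these values known, so their counts are given as descriptions too. With all sequences kept, limma called 0 of the flank bins and 0 of all bins. With Basal replicate 1 or 2 left out, fewer bins were called in the Klf4 flanks and over all bins alike.

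The counts for Early, with 1 library, are descriptions as well, since the Basal values were among those that chose the windows. In the Sox2 window 6 of 25 bins were called higher in Early and 1 lower, and in the Klf4 window 8 of 22 higher, where 9.97% of all bins were called higher and 9.98% lower. The lower bin was the last of the Sox2 window, with a difference of -0.55. The calls higher in Early lay in the 2 bins before those of the gene and in the desert from 34.95 Mb onward, and none in the bins of Sox2. Early was above both Basal libraries in 20 of 25 and 21 of 22 bins (44.1% of all bins), and it passed from below to above 0 in 12 and 11 (5.7% of all bins). With Basal replicate 1 or 2 left out, fewer bins were called in both windows and over all bins alike. Early then exceeded Basal by 0.28 and 0.34 in the Sox2 desert, and by 0.49 and 0.45 in the Klf4 desert. With weights by local scatter, 1 bin was called in each window. Over all bins 3443 were called in either direction with these weights, against 9503 without them. In the flanks, 3 bins before the Sox2 window and none after it were called higher in Early, and 4 bins on each side of the Klf4 window. The flanks of both loci also had fewer called bins with Basal replicate 1 or 2 left out, as did all bins.

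Between Late and Early, the Sox2 window had 10 of 25 bins called higher in Late, among them both bins of the gene and the first 2 of the desert, and the Klf4 window 2 of 22, against 6.28% of all bins. The Klf4 bins were those from 55.95 to 56.05 Mb. Both Late libraries were above Early in 22 Sox2 and 16 Klf4 bins (39.7% of all bins), and 11 and 5 bins passed from below 0 in Early to above 0 in both Late libraries (3.46% of all bins). The Sox2 count was 1 with weights by local scatter and 0 with all sequences kept. The Klf4 count was 0 in both of these settings and with the 10 Mb trend removed. Calls over all bins, in either direction, were 1002 with weights, 0 with all sequences, 3335 without the trend and 6062 as deposited. Without Late replicate 2, more bins were called in both windows and over all bins. The desert difference was then 0.56 at Sox2 and 0.31 at Klf4, against 0.49 and 0.24 with both Late libraries. Without Late replicate 1 it was 0.41 and 0.18. The comparisons share libraries with each other and with the values that chose the windows, so these counts too are descriptions from which nothing is read, and a difference between the loci was not tested.

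Elsewhere in the genome, the bins whose 5 PC1 values were nearest to those of the Sox2 gene bins, by Euclidean distance over the 5 libraries, were chr3:90350001-90400000 (distance 0.22), chr14:118500001-118550000 (0.25) and chr14:48600001-48650000 (0.26). Nearest to the mean of the Sox2 desert were chr5:73200001-73250000 (0.091), chr1:78850001-78900000 (0.14) and chr19:55750001-55800000 (0.15). Nearest to the Klf4 bin were chr14:23250001-23300000 (0.093), chr16:77100001-77150000 (0.11) and chr4:142450001-142500000 (0.12). Nearest to the mean of the Klf4 desert were chr5:138350001-138400000 (0.14), chr8:94500001-94550000 (0.15) and chr2:101650001-101700000 (0.15). With 5 libraries such likeness is a description of PC1 only.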

How the data were processed

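Each of the 5 Hi-C libraries came as 1 table of PC1 values, a signed score per bin that the authors deposited after running HOMER on mm9, per the submitters' processing notes. Bins were 50 kb long with a PC1 window of 100 kb, per the file names. No source used here names the aligner, the read filters or how the sign of PC1 was set. The tables give no depth, so values carry no counting interval.

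Of 50542 bins with a value in all 5 files, 47652 on 18 autosomes and X were analysed, being those whose lowest Pearson r between any 2 libraries reached 0.5. Chromosome 7 failed this rule (lowest r -0.976), since its PC1 ran nearly opposite between some libraries. PC1 as deposited was fitted with limma 3.58.1 in R 4.3.3 over all 5 libraries, with 2 residual degrees of freedom and a prior of 6.60, two-sided, with Benjamini-Hochberg adjustment over all analysed bins at 0.05. This takes Early, a single library, to vary as Basal and Late do. The fit was tested on simulated data with independent noise in each bin and a difference added in Late alone. That does not cover calls in neighbouring bins that share reads, or calls for Early. Python 3.11.15, numpy 2.4.6, pandas 2.3.3 and matplotlib 3.10.9 were used for the rest.

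The windows, gene bins and lists were chosen with earlier results of these data known. Bins were named by rule: the gene's bins, the desert bins of highest and lowest Late minus Basal difference, the bins at the window borders and the 3 most alike bins elsewhere. Any other bin or stretch of bins named was chosen after its values were seen, whether or not this is said beside it. No mm9 annotation was used, so lists of other pluripotency, Sox and Klf genes got no values. Gene order and promoter sequences came from RefSeq tables on GRCm38.p6, where both genes were found. The alternatives were other scalings, removal of a 10 Mb trend, other bin sets, weights by local noise, a threshold of 0.1 and a replicate block. Each library of the groups compared was also left out in turn. Fits without a library of the group outside the comparison were run too, but their counts are not given here. They leave each difference as it is. The number of calls over all bins changed where the library left out was a Basal or a Late one.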

Additional observations from a re-analysis of the deposited data

How the results depend on the processing

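The mean difference of the Sox2 desert became 0.64 (Late minus Basal) and 0.15 (Early minus Basal) with the 10 Mb trend removed, 0.22 (Early minus Basal) with chromosome medians aligned, and 0.45 (Early minus Basal) and 0.38 (Late minus Early) without the outer 2 bins on each side. That of the Klf4 desert became 0.54 and 0.26 (Late and Early minus Basal) with medians aligned, and 0.48, 0.34 and 0.14 (Late minus Early) with the trend removed. Aligning medians shifted the median difference of chromosome 4 by -0.18 (Late minus Basal) and -0.21 (Early minus Basal). This was away from 0, from -0.044 to -0.22 and from -0.012 to -0.22. For Late minus Basal, 3833 of all bins were then called higher and 5219 lower, against 4184 and 3635 as deposited. The lower values and counts at Klf4 in this setting include that offset.

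Desert minus gene for Early minus Basal changed sign in 2 settings: at Sox2 from 0.034 to -0.019 without Basal replicate 1 (0.088 without Basal replicate 2), and at Klf4 from 0.058 to -0.031 with 1 more bin on each side of the gene. Leaving out 1 library gave 0.72 to 0.87 (Late minus Basal), 0.28 to 0.34 (Early minus Basal) and 0.41 to 0.56 (Late minus Early) for the Sox2 desert, and 0.65 to 0.78, 0.45 to 0.49 and 0.18 to 0.31 for the Klf4 desert.

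Called bins in the Sox2 window, 23 for Late minus Basal, 7 for Early minus Basal and 10 for Late minus Early, became 0, 1 and 0 with all sequences, 4 for Early minus Basal with the trend removed, and 1 for Early minus Basal and 1 for Late minus Early with weights by local noise. Leaving out 1 library gave 17 to 24, 1 to 5 and 10 to 17. In the Klf4 window, 21, 8 and 2 became 0, 1 and 0 with all sequences, 12 and 2 (both against Basal) with medians aligned, 8, 3 and 0 with the trend removed, 1 (Early minus Basal) and 0 (Late minus Early) with weights, and 15 (Early minus Basal) and 4 (Late minus Early) at 0.1. Leaving out 1 library gave 8 to 21, 1 to 3 and 4 to 6. Where limma called 0 bins of all analysed sequences, 13365 (Late minus Basal) and 12635 (Late minus Early) had an unadjusted p under 0.05.

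In the Sox2 flanks, 8, 3 and 3 called bins became 0, 1 and 0 with all sequences, 0 (Late minus Early) with weights, and 6 for Early minus Basal and 6 for Late minus Early at 0.1. Leaving out 1 library gave 6 to 11, 1 to 2 and 5 to 9. In the Klf4 flanks, 13, 8 and 0 became 0 and 1 (both against Basal) with all sequences, 2 (Early minus Basal) and 1 (Late minus Early) with medians aligned, 8 and 3 (both against Basal) with the trend removed, 2 (Early minus Basal) with weights, and 1 (Late minus Early) at 0.1. Leaving out 1 library gave 4 to 14, 2 to 3 and 1 to 3. Keeping all sequences leaves the difference of each bin as it is and changes the shared variance and the number of bins tested. The sequences added back include chromosome 7, which failed the rule on r between libraries. The prior degrees of freedom of the fit were lower with them than without. How much of the loss of calls came from that chromosome was not tested. With 1 library of the groups compared left out, the number of calls over all bins changed as well. The cause of the other changes was not tested.

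With the replicate number as a block, the Sox2 window had 24, 8 and 8 called bins and the Klf4 window 22, 7 and 2, and the Sox2 flanks 8, 2 and 4 and the Klf4 flanks 13, 7 and 0. The numbers share no stated source: across bins, the replicate deviations of Basal and Late correlated with r of 0.010. Without Early replicate 1 no value of Early can be had.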
